A study of Mus musculus with 34 samples.

Results

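Translation initiation and elongation factors were followed in hematopoietic stem cells (HSCs) of mice with and without the m6A reader YTHDF2. The members were all genes of the count table whose symbol begins with Eif1 to Eif6 or with Eef1 or Eef2, leaving out the interferon-induced kinase Eif2ak2, and this gave 62 of 13108 genes. Ythdf2 fl/fl;Vav-iCre mice (Ythdf2 CKO), in which the Vav-driven Cre acts throughout the blood lineage, were compared with Ythdf2 fl/fl mice without Cre (Ythdf2 CTL), so that controls carry the floxed, GFP-tagged allele as well. All mice were C57BL/6. Young mice were 8–12 wk old (4 CTL and 4 CKO) and aged mice 1 yr old (4 CTL and 5 CKO). Each library was made from 100 sorted HSCs, every mouse gave 2 libraries, and these were summed, so that n counts mice throughout. Library B of aged CTL mouse 99, with 187034 counts, was left out. Levels are CPM (counts scaled to a common total of counts in genes) after scaling with the trimmed mean of M values (TMM), a called gene is one with an adjusted p below 0.05, and values per mouse are listed in the order of mice 1 to 4 (young), 65, 99, 114 and 124 (aged CTL) and 78, 81, 94, 121 and 122 (aged CKO). A value given with its SE and adjusted p is a log2 fold change with edgeR's quasi-likelihood test, and where 2 such values between ages stand together, CTL comes first and CKO second.

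Protein synthesis begins when eIF2, carrying the initiator tRNA and GTP, joins eIF1, eIF1A, eIF3 and eIF5 on the small ribosomal subunit. The eIF4F complex, made of the cap-binding protein eIF4E, the helicase eIF4A and the scaffold eIF4G, brings this assembly to a capped mRNA, and eIF4E-binding proteins block it. Peptide chains are then extended by eEF1A, which delivers aminoacyl-tRNA, and eEF2, which moves the ribosome along. HSCs are known for a low rate of protein synthesis and for being harmed when that rate rises.

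Depth was 2218618 to 10125624 counts per mouse, and the members together took 1.5 to 1.97% of them. A count of 3 corresponded to 0.292 to 1.24 CPM. Ythdf2 itself, the targeted gene, stood at 118, 123, 93.3 and 97.2 CPM in young CTL mice and at 55.5, 57.6, 60.2 and 50.3 CPM in young CKO mice. Among aged mice it stood at 179, 164, 142 and 70.5 CPM in CTL and at 75.7, 87.7, 73.7, 188 and 72.4 CPM in CKO mice, so that the aged mouse labelled CKO 121 had a control-like level and the aged mouse labelled CTL 124 a knockout-like level. Most aged genotype values named below and the main counts between ages are therefore also given without both. Of the 62 values of named members between ages 59 stayed on their side of the threshold and 3 gained a call without them (Eef2k and Eif1ad in CTL, Eif2d in CKO mice). Reads outside the floxed exon still count, so the gene is not expected at 0. The 10 HSC marker genes were detected in every group. Their sum was 1429 CPM in aged CTL mouse 124 and 2438 to 2781 CPM in the other aged CTL mice. The 2 libraries of mouse 124 also differed more from each other than those of any other mouse with 2 libraries. Their chi-square per degree of freedom was 54.4, against 9.93 to 25.6. Marker genes of megakaryocytes and platelets, summed over the 9 in the table, ranged from 585 to 944 CPM in young CTL against 1130 to 3292 CPM in young CKO mice, and from 626 to 918 CPM in aged CTL against 2293 to 2717 CPM in aged CKO mice other than mouse 121, which had 896 CPM. Aged CTL mouse 124, with its knockout-like Ythdf2 level, had 639 CPM, near the low end of aged CTL mice. Pf4 alone gave 745 to 2764 CPM of the sum in young CKO mice. In young mice 2 of the 9 genes had a log2 fold change below 0. Among them was Gp9, at 97.6, 75.9, 83.0 and 81.5 CPM in CTL and 43.7, 58.8, 76.1 and 68.3 CPM in CKO mice (-0.45 ± 0.20 SE, adjusted p = 0.674). None of these 9 genes was at 0 in all mice of a group, and their part in the genotype results was not tested. All 12 proliferation markers had a log2 fold change below 0 in young CKO against CTL mice (median -0.34, 0 called, 4 at an unadjusted p below 0.05) and 6 of 12 did in aged mice. Fewer cells of a type and less RNA per cell cannot be told apart in bulk samples.

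Levels per length placed Eif5a, whose product eases peptide bonds at difficult sequences, and Eef1a1 first in all 4 groups. In young CTL mice Eif5a stood at 1894 ± 390.5 and Eef1a1 at 1156 ± 152 CPM per kb of the longest coding transcript. Eif1, which guards start codon choice, followed at 928 ± 75.5, then Eif4a1 at 539 ± 82.7 CPM per kb (mean ± SD, n = 4 mice). Eif5a and Eef1a1 did not overlap, whereas Eef1a1 and Eif1 met at their edges, with 997 to 1352 and 820.0 to 996 CPM per kb. At the low end stood the eIF2 alpha kinase Eif2ak3 (PERK) at 1.89 ± 0.645 and the eIF4E-binding protein gene Eif4ebp2 at 1.36 ± 0.819 CPM per kb, whose ranges overlapped. Members with close copies elsewhere in the genome (Eif1ax and Eif1a, Eif2s3x and Eif2s3y, Eif3j1, Eif4a1, Eif5a, Eef1a1) are uncertain where reads were shared between copies.

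The first question was whether loss of YTHDF2 altered the mRNAs of the translation machinery. No member was called in either age. In young mice 0 of 62 members passed, against a background of 0.174% of 11526 genes, and the median log2 fold change of the members (CKO over CTL) was -0.02, with a median SE of 0.17. In aged mice 0 of 61 members passed, against a background of 0% of 11961 genes, with a median of 0.06 (0.07 without mice 121 and 124) and a median SE of 0.21. At an unadjusted p below 0.05 by edgeR's quasi-likelihood test, 1 of 62 members passed in young mice (background 7.06%) and 7 of 61 in aged mice (11.5%; background 10.1%), of which 2 were higher and 5 lower. Without mice 121 and 124 the latter count was 6 of 61, 3 in each direction, beside 1390 of 12005 genes. The difference of the genotype effect between ages was called for 0 members as well (background 0%), and at an unadjusted p below 0.05 for 1 of 62. DESeq2 and the likelihood ratio test over mice also called 0 members in either age, and the likelihood ratio test over single libraries called 4 in aged mice (Eif4b, Eif4a2, Eef1b2 and Eif3c, all lower). These were 6.56% of the members, beside 420 of 11261 genes (3.73%). The summed reads of the Y-linked genes Ddx3y, Kdm5d and Uty were uneven between young genotypes, with a median of 161 CPM in CTL and 0 CPM in CKO mice. With these reads as a covariate 0 members were called in either age. A p that misses the threshold does not show that the genotypes were alike.

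By role, the log2 fold changes in young mice were as follows. The 13 eIF3 subunit genes ran from -0.23 to 0.16 and the 11 genes of eIF4F and its helicase partners from -0.20 to 0.18. The 4 eEF1 subunit genes and Eef1e1, of the aminoacyl-tRNA synthetase complex, all lay below 0 (background 50.1%), from -0.27 to -0.0024, and the 9 start codon and subunit joining genes ran from -0.13 to 0.34. The 4 genes of eIF4E-binding inhibitors ran from -0.07 to 0.70, and Eif5a, Eif5a2 and Eif6 from -0.42 to -0.11. In aged mice the ranges were -0.47 to 0.26 for eIF3 (-0.22 to 0.35 without mice 121 and 124), -0.81 to 0.37 for eIF4F (-0.56 to 0.40) and -0.69 to 0.35 for eEF1 with Eef1e1 (-0.25 to 0.39). They were -0.48 to 0.59 for the start codon genes (-0.30 to 0.58 without both mice), -1.12 to 0.24 for the eIF4E-binding inhibitors (-0.87 to 0.21), and 0.11 to 0.38 for Eif5a, Eif5a2 and Eif6 (0.09 to 0.71).

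**Figure D1:**
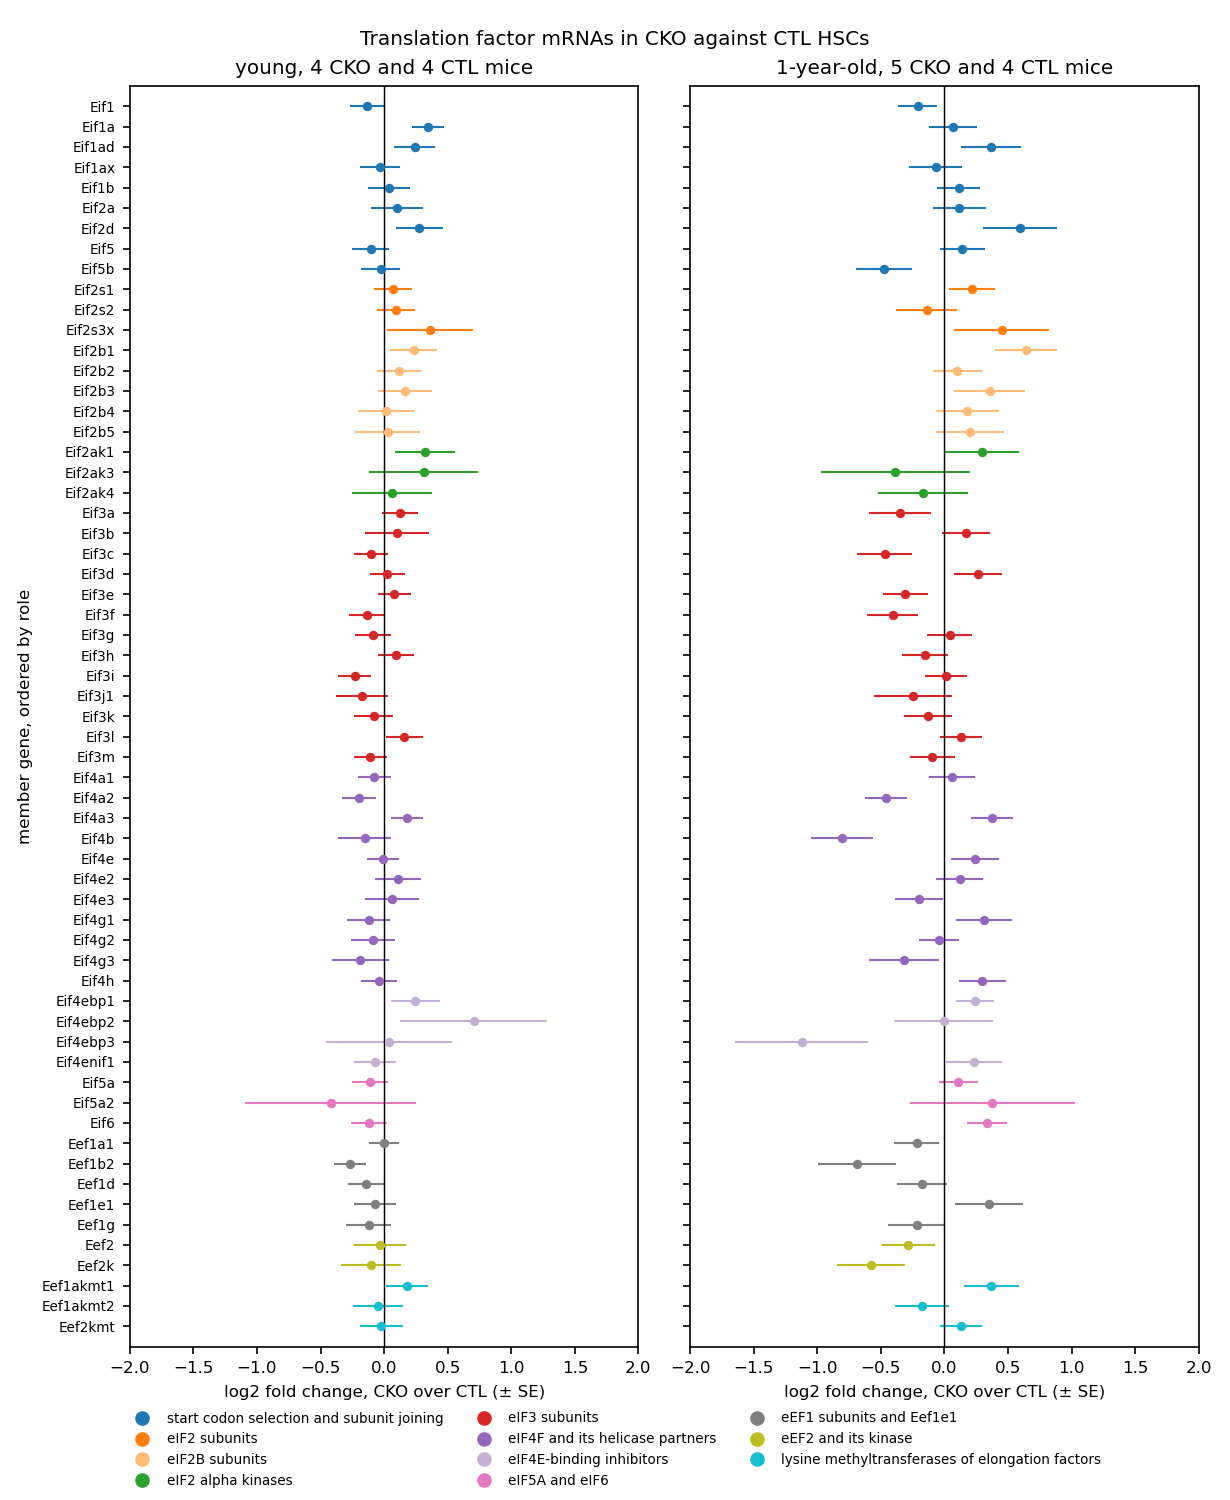
Log2 fold change of each member between Ythdf2 CKO and CTL HSCs (horizontal axis, ± SE) in young (left) and aged (right) mice, one row per gene, coloured by role; Eif2s3y is left out. The points lie around 0 in both ages (medians -0.02 and 0.06), with Eif1a at 0.34 on the left and Eif4b at -0.81 on the right.

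Eif1a, an autosomal gene for the scanning factor eIF1A, had the smallest p among the members in young mice. Its level was 330.4, 288, 260.4 and 278 CPM in young CTL and 380.1, 374, 356 and 353 CPM in young CKO mice. All 4 CKO mice lay above all 4 CTL mice, as was so of 2.68% of all genes. The log2 fold change was 0.34 ± 0.13 (SE, adjusted p = 0.525) by edgeR's quasi-likelihood test, and the exact two-sided permutation test over mice gave p = 0.0286, the smallest that 4 against 4 mice allow. In aged mice the genotypes overlapped, at 392, 269, 278 and 267 CPM in CTL and 355, 343, 283, 221 and 369.8 CPM in CKO mice, with a log2 fold change of 0.07 ± 0.19 (SE, adjusted p = 0.942), or 0.11 (adjusted p = 0.874) without mice 121 and 124. Its X-linked partner Eif1ax showed no such separation in young mice, with a log2 fold change of -0.03 ± 0.16 (SE, adjusted p = 0.986).

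Eif1ad, an eIF1A-domain gene, and Eif2d, which can bring initiator tRNA to the ribosome without GTP, were further members of the start codon group. The log2 fold change in young mice was 0.24 ± 0.16 (SE, adjusted p = 0.86) for Eif1ad and 0.28 ± 0.18 (SE, adjusted p = 0.857) for Eif2d. In young mice Eif1ad stood at 145, 119, 141 and 184 CPM in CTL and 156, 200.5, 153 and 184 CPM in CKO, and Eif2d at 69.5, 59.4, 72.3 and 81.9 CPM in CTL and 96.5, 71.1, 76.3 and 98.1 CPM in CKO mice. The genotypes overlapped for both genes. Aged CKO mice held Eif2d at 114, 128, 116, 108 and 143 CPM, all above the 99.8, 99.4, 93.8 and 31.1 CPM of aged CTL mice. That separation gave an exact two-sided permutation p of 0.00794, the smallest that 5 against 4 mice allow, but 0.59 ± 0.29 (SE, adjusted p = 0.511) as the log2 fold change by edgeR. Groups of that age did not overlap, with CKO higher, for 1.78% of all genes. The low value was that of CTL mouse 124, and without mice 121 and 124 the log2 fold change was 0.35 (adjusted p = 0.447).

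In aged mice the member with the smallest p was Eif4b, whose product stimulates the helicase eIF4A. Aged CTL mice held 144, 185, 251 and 365 CPM and aged CKO mice 98.3, 132, 133, 146 and 162 CPM. The highest CKO value exceeded the lowest CTL value, so the groups overlapped. The log2 fold change was -0.81 ± 0.24 (SE, adjusted p = 0.33), and -0.56 (adjusted p = 0.343) without mice 121 and 124. Its young counterparts stood at 114, 158, 83.6 and 79.6 CPM in CTL and 93.3, 107, 95.8 and 95.1 CPM in CKO mice, and the difference of the genotype effect between ages was -0.67 ± 0.34 (SE, adjusted p = 0.999). The helicase gene Eif4a2 was at 313, 228, 323 and 275 CPM in aged CTL and 186, 219.8, 222, 165 and 236 CPM in aged CKO mice, a log2 fold change of -0.46 ± 0.17 (SE, adjusted p = 0.398), and -0.42 (adjusted p = 0.365) without mice 121 and 124. Only the lowest CTL mouse fell within the CKO range. Eif4a3, the helicase of the exon junction complex, went the other way, with 295, 195, 243 and 226 CPM in CTL and 319, 338, 341, 256 and 289 CPM in CKO mice and a log2 fold change of 0.37 ± 0.17 (SE, adjusted p = 0.478), or 0.40 (adjusted p = 0.4) without mice 121 and 124.

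Eef1b2, the nucleotide exchange factor of eEF1A, had a negative log2 fold change in both ages that did not pass the test. Young CTL mice held 514, 520.4, 429 and 513 CPM and young CKO mice 359, 429, 447 and 401 CPM, a log2 fold change of -0.27 ± 0.13 (SE, adjusted p = 0.708). In aged mice the values were 370.5, 347, 699 and 1250 CPM in CTL and 387, 361, 387, 463 and 452 CPM in CKO mice, a log2 fold change of -0.69 ± 0.30 (SE, adjusted p = 0.473). CTL mouse 124 alone reached 1250 CPM, and without mice 121 and 124 the log2 fold change was -0.25 (adjusted p = 0.726). Eif2b1, the alpha subunit of the eIF2 exchange factor eIF2B, stood at 131, 142, 148, 93.8 and 139.5 CPM in aged CKO and 105, 85.4, 99.8 and 46.2 CPM in aged CTL mice, overlapping by the CKO mouse 121, with a log2 fold change of 0.65 ± 0.24 (SE, adjusted p = 0.412), or 0.53 (adjusted p = 0.225) without mice 121 and 124. All 5 eIF2B subunit genes had a positive log2 fold change in both ages (background 49.9% in young and 49.7% in aged mice), between 0.02 and 0.23 in young and between 0.10 and 0.65 in aged mice, and none was called. Without mice 121 and 124 the aged values ran from -0.05 to 0.53, and 4 of 5 were positive. Eif3i, an eIF3 subunit gene, stood at 271, 329, 323 and 275 CPM in young CKO and 349.6, 325, 362 and 375 CPM in young CTL mice, with 1 CKO mouse inside the CTL range and a log2 fold change of -0.23 ± 0.13 (SE, adjusted p = 0.773).

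The kinases and inhibitors of initiation did not pass either. Eif2ak3, Eif2ak1 and Eif2ak4 had log2 fold changes between 0.06 and 0.32 in young and between -0.39 and 0.29 in aged mice (-0.42 to 0.12 without mice 121 and 124). Eif2ak3 was low, at 4.84, 10.5, 7.55 and 11.2 CPM in young CTL and 7.12, 11.5, 9.37 and 14.1 CPM in young CKO mice, and at 6.92, 9.90, 8.94 and 10.1 CPM in aged CTL and 8.37, 5.74, 6.61, 1.58 and 11.8 CPM in aged CKO mice. Its groups overlapped in both ages. Eif4ebp1, the main mTORC1-controlled inhibitor of eIF4E, was at 275, 223, 255 and 321 CPM in young CTL and 207, 355, 426 and 281 CPM in young CKO mice, and at 323, 286, 288 and 292 CPM in aged CTL and 335, 393, 280.1, 363 and 381 CPM in aged CKO mice. The log2 fold changes were 0.25 ± 0.19 (SE, adjusted p = 0.893) and 0.24 ± 0.15 (SE, adjusted p = 0.62), with overlap in both ages. Without mice 121 and 124 the aged value was 0.21 (adjusted p = 0.677). Eif6, which keeps ribosomal subunits apart, was the sole member with an unadjusted p below 0.05 for the difference of the genotype effect between ages (background 4.76%). It stood at 266, 193, 249 and 290.4 CPM in young CTL and 235, 221, 227 and 232 CPM in young CKO mice, against 271, 213, 191 and 207 CPM in aged CTL and 252, 288, 263, 287 and 291 CPM in aged CKO mice, and the difference was 0.45 ± 0.21 (SE, adjusted p = 0.999), or 0.41 (adjusted p = 0.774) without mice 121 and 124.

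The second comparison set aged against young HSCs within each genotype. The descriptions of the young and the aged libraries carry different library codes, so age and library set cannot be told apart. Summed Y-linked reads also differed, with a median of 161 CPM in young and 0.0931 CPM in aged CTL mice (0 CPM in both CKO groups). With these reads as a covariate 19 of the 21 CTL calls and all 18 CKO calls given next remained, and others were gained. In CTL mice 21 of 62 members were called (33.9%, against a background of 14.8% of 12352 genes), 6 higher (background 6.71%) and 15 lower in aged mice (background 8.08%). In CKO mice 18 were called (29.0%, against a background of 16.6%), 5 higher (background 7.21%) and 13 lower (background 9.34%). Ages did not overlap for 24 members in CTL mice, 7 higher (background 7.11%) and 17 lower (background 10%), and for 21 in CKO mice, 6 higher (background 9.07%) and 15 lower (background 11.3%). The members' median log2 fold change was -0.14 in CTL and -0.15 in CKO mice, beside 0.11 and 0.07 over all genes tested. Both comparisons share no mouse but share a library set and a fit, and 16 members were called in both in the same direction (76.2% of the CTL and 88.9% of the CKO calls). Of these 4 were higher and 12 lower. Over all genes tested, 1075 were called in both in the same direction (58.8% of the CTL and 52.6% of the CKO calls). Proliferation markers had a median log2 fold change of -0.43 in CTL mice (8 of 12 below 0, 2 called lower) and -0.03 in CKO mice (7 of 12 below 0, 1 called lower), megakaryocyte and platelet markers had 2 of 9 called higher in CTL and 4 in CKO mice, and their part in the members' values was not tested. Without young CTL mouse 4 the CTL count was 13 (21.0%, beside 896 of 12496 genes or 7.17%), all among the 21, with Eif1, Eif2a, Eif2b1, Eif2s2, Eif4e2, Eif4ebp2, Eef1akmt1 and Eef2kmt lost. Without mice 121 and 124 the counts were 24 (38.7%, beside 17.6% of all genes) and 20 (32.3%, beside 18.1%), holding 20 of the 21 (Eif2a was lost) and all 18. Of these, 16 members were called in both in the same direction (66.7% and 80.0% of the calls), beside 1247 genes in all (57.0% and 55.7%). Ages then did not overlap for 8 members higher and 20 lower in CTL mice, beside 1510 and 1757 of 12409 genes, and for 6 and 16 in CKO mice, beside 1413 and 1615.

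Called members differed in base composition and length, as did all called genes. The longest coding transcripts of the 15 members lower in aged CTL mice had a median GC share of 44.1% and a median length of 2013 bases, against 54.3% and 3472 bases for the 6 higher ones. Over all genes the medians were 45.5% and 1663 bases for those lower, and 54.2% and 3898 bases for those higher. Across the 62 members the log2 fold change correlated with GC share at Pearson's r = 0.44 in CTL and 0.49 in CKO mice, a description across genes that share libraries. With an offset that removes each mouse's trend along GC share and length, an alternative added after the data were seen, 8 members were called in CTL mice (12.9%, background 3.93%) and 7 in CKO mice (11.3%, background 3.86%). All 8 were among the 21 called without it, and 6 of the 7 among the 18, the other being Eef1d, which the offset newly called lower. Eif1ax, Eif1b, Eif2s1, Eif4a1 and Eif4e2 were called lower in aged mice in both genotypes with and without the offset. Of these only Eif4e2 lost a call when a mouse was left out, as given below.

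**Figure D2:**
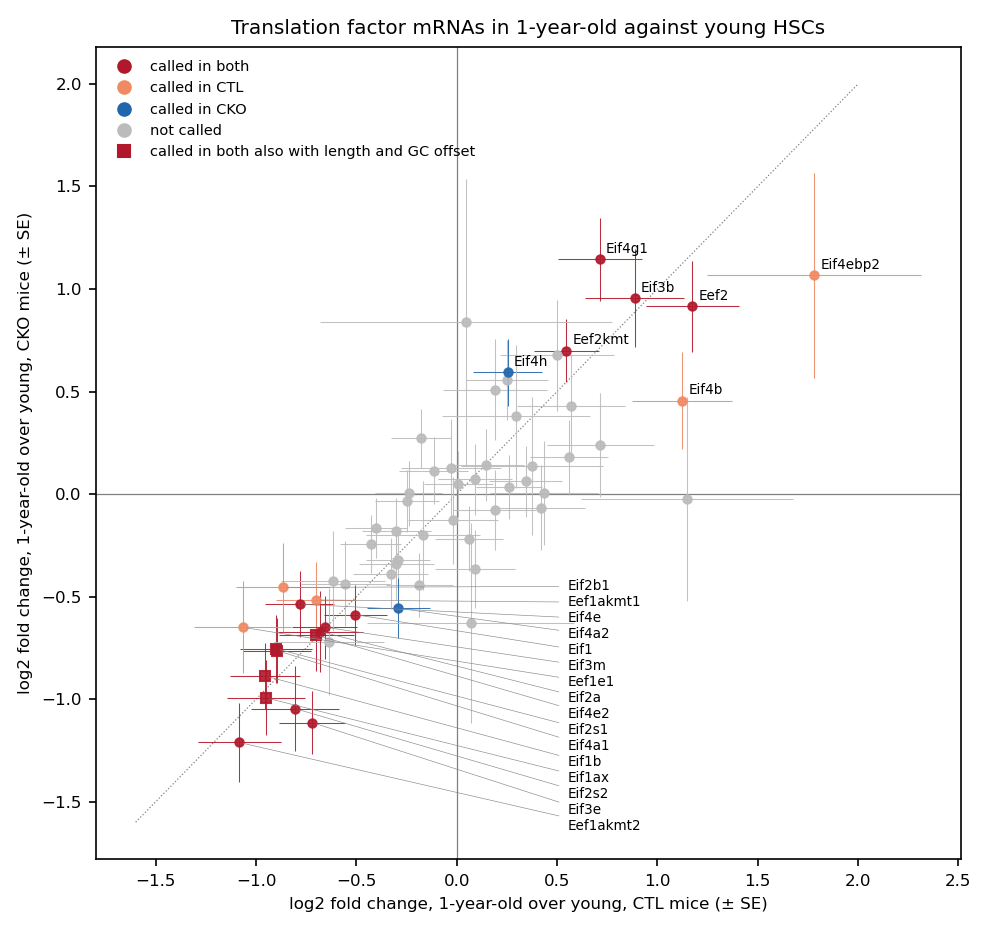
Log2 fold change of each member between aged and young HSCs in Ythdf2 CTL (horizontal axis) and CKO mice (vertical axis), both ± SE; the dotted line marks equal change and Eif2s3y is left out. The 16 members called in both genotypes lie near the dotted line, 12 at the lower left and 4 at the upper right, and squares mark the 5 that were also called in both with the length and GC offset.

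**Figure D3:**
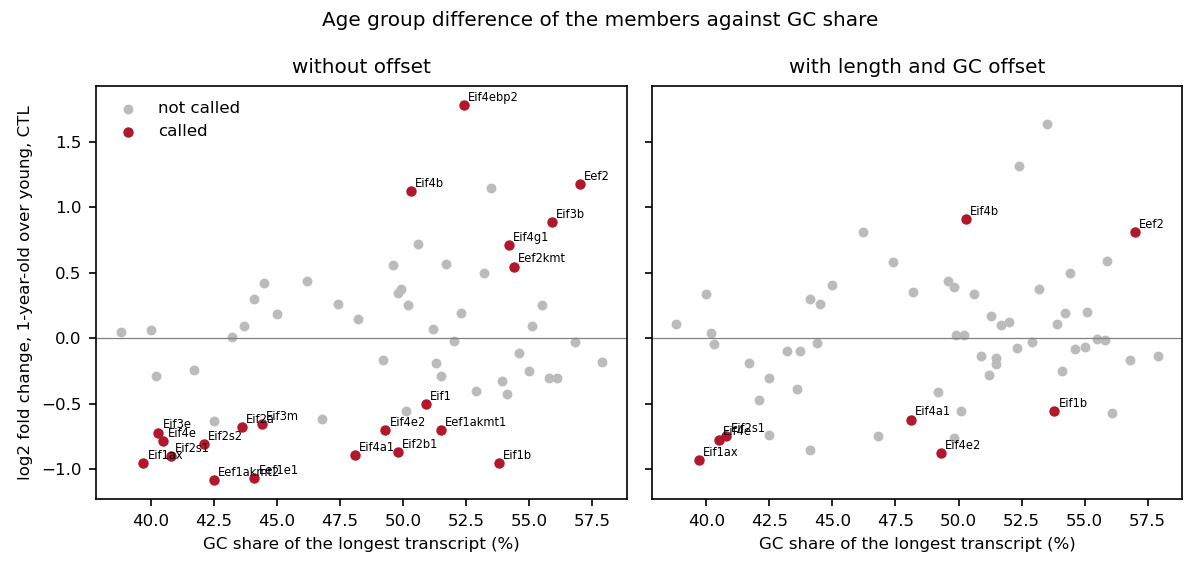
Log2 fold change between aged and young CTL HSCs (vertical axis) against the GC share of each member's longest coding transcript (horizontal axis, %), without (left) and with (right) the offset for length and GC; Eif2s3y is left out. On the left the 6 members called higher lie at GC shares of 50.3 to 57.0% and the 15 called lower spread from 39.7 to 53.8%, and on the right 8 remain called, 6 lower and 2 higher.

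Among the factors for start codon selection, 4 of 9 were called in each genotype, all lower in aged mice: Eif1, Eif1b, Eif1ax and Eif2a (44.4%, against a background of 8.08% lower in CTL and 9.34% in CKO mice). With the offset Eif1 (-0.14, adjusted p = 0.66 and -0.26, adjusted p = 0.3) and Eif2a (-0.39, adjusted p = 0.343 and -0.44, adjusted p = 0.24) lost both calls. Eif1ax, the X-linked gene for eIF1A, stood at 189, 208, 193 and 219 CPM in young and 118, 71.8, 84.0 and 143 CPM in aged CTL mice. CKO mice held 163, 226, 234 and 165 CPM when young and 90.7, 102, 90.7, 95.1 and 116 CPM when aged. Every aged mouse lay below every young mouse of its genotype. The log2 fold changes were -0.95 ± 0.20 (SE, adjusted p = 0.00389) in CTL and -0.99 ± 0.18 (SE, adjusted p = 0.00135) in CKO mice. Eif1b, a copy of the start codon factor eIF1, went from 202, 205, 196 and 252 to 115, 98.2, 135 and 91.5 CPM in CTL and from 188, 226, 286 and 176 to 125, 114, 120.4, 122 and 110.4 CPM in CKO mice, again without overlap, with -0.96 ± 0.17 (SE, adjusted p = 0.00183) and -0.89 ± 0.16 (SE, adjusted p = 0.00126). The autosomal Eif1a did not move along with Eif1ax, with log2 fold changes of 0.06 ± 0.17 (SE, adjusted p = 0.842) and -0.22 ± 0.16 (SE, adjusted p = 0.385). Within a mouse the ratio of Eif1ax to Eif1a per kb was 0.405 (0.316 to 0.436) in young and 0.167 (0.148 to 0.296) in aged CTL mice, and 0.297 (0.238 to 0.363) and 0.174 (0.141 to 0.238) in CKO mice (median and range). The call on Eif2a was also lost in CTL mice without mice 121 and 124 and in both genotypes with library totals as the sole scaling, where the CTL call on Eif1 was lost too. The CTL call on Eif1 was further lost without young CTL mouse 1, 3 or 4 or aged CTL mouse 99 or 114. That on Eif2a was lost without young CTL mouse 2, 3 or 4 or aged CTL mouse 99 or 124. In CKO mice the call on Eif2a was lost without young CKO mouse 2 or 3 or aged CKO mouse 78 or 121. For Eif1ad the log2 fold change was -0.55 ± 0.22 (SE, adjusted p = 0.0929) in CTL and -0.44 ± 0.21 (SE, adjusted p = 0.156) in CKO mice, and for Eif2d 0.19 ± 0.26 (SE, adjusted p = 0.659) and 0.51 ± 0.25 (SE, adjusted p = 0.166). Eif1ad was called lower in CTL mice without mice 121 and 124 (-0.69, adjusted p = 0.0326), without mouse 124 alone (-0.71, adjusted p = 0.0381), without aged CTL mouse 65 (-0.72, adjusted p = 0.0396) and with the summed Y-linked reads as a covariate (-0.73, adjusted p = 0.0326). In CKO mice it was called lower by limma voom (-0.43, adjusted p = 0.047) and by the likelihood ratio test over libraries (-0.41, adjusted p = 0.0417). Eif2d was called higher in CKO mice without mice 121 and 124 (0.55, adjusted p = 0.023), without mouse 124 alone (0.50, adjusted p = 0.0265) and by the test over libraries (0.52, adjusted p = 0.0396).

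The alpha and beta subunit genes of eIF2 were lower in aged mice of both genotypes. Eif2s1, whose product is the subunit phosphorylated in the integrated stress response, stood at 428, 341, 392 and 540.0 CPM in young and 293, 175, 223 and 217 CPM in aged CTL mice. CKO mice held 434, 448, 506 and 388 CPM when young and 258, 304, 225, 228 and 301 CPM when aged. Its log2 fold changes were -0.90 ± 0.18 (SE, adjusted p = 0.00295) and -0.75 ± 0.17 (SE, adjusted p = 0.00444), and ages did not overlap in either genotype. Eif2s2, the beta subunit gene, stood at 222, 228, 225 and 261 CPM in young and 109, 101, 103 and 221 CPM in aged CTL mice, with CTL mouse 124 close to the young mice. In CKO mice it went from 190.4, 252, 302 and 249.6 to 117, 123, 93.4, 126 and 142 CPM. The log2 fold changes were -0.81 ± 0.22 (SE, adjusted p = 0.019) and -1.05 ± 0.21 (SE, adjusted p = 0.00223), which with the length and GC offset became -0.48 (adjusted p = 0.313) and -0.80 (adjusted p = 0.0579). Eif2b1 was called lower in aged CTL mice (142, 141, 146 and 184 CPM in young mice, -0.87 ± 0.23 SE, adjusted p = 0.0172), and in CKO mice it was at 153, 176, 251 and 138 CPM when young, with -0.46 ± 0.22 (SE, adjusted p = 0.161). The CTL call on Eif2b1 was lost without young CTL mouse 4 (-0.77, adjusted p = 0.0609) and with the offset (-0.76, adjusted p = 0.0517), and that on Eif2s2 without young CTL mouse 4 (-0.75, adjusted p = 0.0623), aged CTL mouse 99 (-0.70, adjusted p = 0.061) or aged CTL mouse 114 (-0.70, adjusted p = 0.0604). The 3 eIF2 alpha kinase genes were called in neither genotype, and Eif2ak3 had log2 fold changes of 0.07 ± 0.52 (SE, adjusted p = 0.946) and -0.63 ± 0.49 (SE, adjusted p = 0.412).

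The gamma subunit of eIF2 is encoded by an X-linked gene, Eif2s3x, and a Y-linked gene, Eif2s3y. Eif2s3y had reads in 6 of the 17 mice: young CTL mice 1, 2 and 3 at 146, 123 and 144 CPM, young CKO mouse 1 at 98.2 CPM, aged CTL mouse 99 at 48.7 CPM and aged CKO mouse 78 at 53.2 CPM. These were the 6 mice with more than 100 summed CPM of the Y-linked genes Ddx3y, Kdm5d and Uty, and Eif2s3y was at 0 counts in the other 11. A value of 0 allowed up to 0.292 to 0.584 CPM at the depth of those mice. Aged CTL mouse 114 had 0.186 CPM of Ddx3y, below what 3 counts give, and no Eif2s3y. Eif2s3y reads thus came from 3 of 4 young CTL mice but from 1 mouse of each other group, and the fitted differences of Eif2s3y follow this split. Eif2s3x was low in all mice, at 17.4, 10.8, 15.5 and 19.4 CPM in young CTL, 15.2, 23.6, 13.8 and 28.1 CPM in young CKO, 32.4, 9.49, 16.8 and 18.1 CPM in aged CTL and 16.4, 34.3, 30.9, 24.1 and 25.7 CPM in aged CKO mice, and its groups overlapped.

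**Figure D4:**
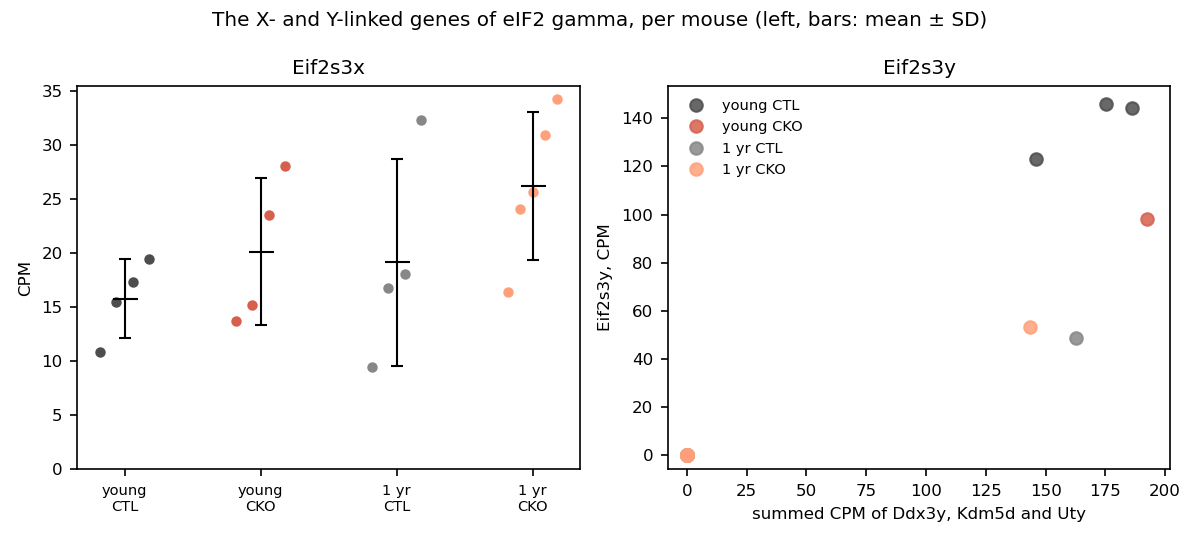
Level of Eif2s3x in CPM per mouse by group (left, points are mice, bars mean ± SD) and of Eif2s3y in CPM (right, vertical axis) against the summed CPM of 3 other Y-linked genes (horizontal axis). The 6 mice with Eif2s3y reads stand at 48.7 to 146 CPM and the other 11 lie on top of each other at or next to 0 on both axes, whereas Eif2s3x overlaps between all groups.

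Of the 13 eIF3 subunit genes, which scaffold the initiation complex, 3 were called in each genotype: Eif3b higher, and Eif3e and Eif3m lower in aged mice (23.1%, against a background of 14.8% in CTL and 16.6% in CKO mice). Eif3m was called in neither genotype with the offset, at -0.04 (adjusted p = 0.922) and -0.02 (adjusted p = 0.95). Eif3e stood at 439.7, 395, 421 and 429 CPM in young and 281, 169.5, 271 and 299 CPM in aged CTL mice. CKO mice held 401, 472, 513 and 389 CPM when young and 182, 215, 202, 198 and 228 CPM when aged, with no overlap between ages. The log2 fold changes were -0.72 ± 0.16 (SE, adjusted p = 0.00603) and -1.11 ± 0.15 (SE, adjusted p = 0.000181), and -0.05 (adjusted p = 0.902) and -0.39 (adjusted p = 0.109) with the length and GC offset. Eif3b went the other way, from 177, 184, 181 and 202 to 397, 349, 237 and 391 CPM in CTL mice, 0.89 ± 0.25 (SE, adjusted p = 0.0211). In CKO mice Eif3b spread from 93.7 to 299.9 CPM when young and stood at 299, 424, 349, 435 and 418 CPM when aged, 0.96 ± 0.24 (SE, adjusted p = 0.00915), so ages overlapped by the aged mouse 78. With the offset it was no longer called, at 0.59 (adjusted p = 0.122) and 0.54 (adjusted p = 0.134), and in CTL mice also not without young mouse 1 (0.86, adjusted p = 0.0581) or 3 (0.86, adjusted p = 0.0595). Eif3i was not called, with -0.40 ± 0.15 (SE, adjusted p = 0.0823) in CTL and -0.16 ± 0.15 (SE, adjusted p = 0.479) in CKO mice. It was called lower in CTL mice by DESeq2 (-0.41, adjusted p = 0.0394) and with the Y-linked covariate (-0.51, adjusted p = 0.0365). Calls on subunits of this complex thus went in both directions.

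The eIF4F group held calls in both directions. Eif4a1, the main eIF4A helicase gene, stood at 949, 774, 968 and 1133 CPM in young and 661, 361, 568 and 465 CPM in aged CTL mice. CKO mice held 808, 914, 949 and 943 CPM when young and 551, 587, 582, 439 and 502 CPM when aged. All aged mice lay below all young mice, with log2 fold changes of -0.89 ± 0.17 (SE, adjusted p = 0.00237) and -0.76 ± 0.16 (SE, adjusted p = 0.00312). Eif4e, the cap-binding protein gene, stood at 429, 458, 429 and 559 CPM in young and 382, 203, 225 and 277 CPM in aged CTL mice. CKO mice held 444, 495, 476 and 442 CPM when young and 321, 333, 282, 301 and 363 CPM when aged. It was lower in aged mice without overlap, -0.78 ± 0.17 (SE, adjusted p = 0.00542) and -0.54 ± 0.16 (SE, adjusted p = 0.026). In CKO mice the call on Eif4e was lost with the length and GC offset (-0.38, adjusted p = 0.186) but not in CTL mice (-0.77, adjusted p = 0.0163), and it was also lost without young CKO mouse 2 or 3 or aged CKO mouse 94 or 121 (-0.50, -0.54, -0.49 and -0.52, with adjusted p = 0.0782, 0.0604, 0.0644 and 0.0532) and with library totals as the sole scaling (-0.44, adjusted p = 0.0508). Eif4e2, the gene of the cap-binding homolog 4EHP, had -0.70 ± 0.19 (SE, adjusted p = 0.0167) and -0.69 ± 0.18 (SE, adjusted p = 0.0106), and Eif4a2 had -0.29 ± 0.16 (SE, adjusted p = 0.217) and -0.56 ± 0.15 (SE, adjusted p = 0.0129), the latter at -0.25 (adjusted p = 0.337) with the offset. The call on Eif4e2 was lost in CTL mice without young CTL mouse 4 and in CKO mice without young CKO mouse 3.

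Eif4g1, the scaffold gene, was higher in aged mice. It stood at 101, 82.9, 96.5 and 121 CPM in young and 145, 127, 185 and 200.2 CPM in aged CTL mice. CKO mice held 78.9, 91.5, 96.2 and 101 CPM when young and 228, 170.5, 151, 298 and 170.3 CPM when aged. Ages did not overlap in either genotype, and the log2 fold changes were 0.71 ± 0.21 (SE, adjusted p = 0.0262) and 1.14 ± 0.20 (SE, adjusted p = 0.000924), with 0.20 (adjusted p = 0.632) and 0.66 (adjusted p = 0.0434) under the offset. The CTL call on Eif4g1 was lost without young CTL mouse 1, 2 or 3 or aged CTL mouse 114 or 124 (0.72, 0.63, 0.68, 0.65 and 0.59, with adjusted p = 0.0618, 0.0763, 0.0713, 0.067 and 0.0633), and with the summed Y-linked reads as a covariate (0.61, adjusted p = 0.0686), of which 3 of 4 young but 1 of 4 aged CTL mice had more than 100 CPM. Eif4b was called higher in aged CTL mice, 1.12 ± 0.25 (SE, adjusted p = 0.00576), and not in CKO mice, 0.46 ± 0.24 (SE, adjusted p = 0.203), and as given above the difference between genotypes was not called. Its partner Eif4h was called in CKO mice, from 405, 339, 328 and 460.2 to 506, 607, 534, 693 and 550.0 CPM (0.59 ± 0.16 SE, adjusted p = 0.0169), a call lost with the offset (0.18, adjusted p = 0.501) and without young CKO mouse 2 (0.54, adjusted p = 0.0659) or 3 (0.51, adjusted p = 0.0684). In CTL mice Eif4h stood at 384, 348, 448 and 402 CPM when young and 587, 525, 439 and 334 CPM when aged (0.25 ± 0.17 SE, adjusted p = 0.337). The exon junction helicase Eif4a3 was not called, with -0.43 ± 0.15 (SE, adjusted p = 0.0582) and -0.24 ± 0.14 (SE, adjusted p = 0.257). In CTL mice it was called lower with a filter at 5 CPM (-0.46, adjusted p = 0.0439), by DESeq2 (-0.44, adjusted p = 0.0241), by the likelihood ratio test over libraries (-0.37, adjusted p = 0.0346) and with the Y-linked covariate (-0.51, adjusted p = 0.0342). The same held without aged CTL mouse 65 (-0.55, adjusted p = 0.0214) or aged CKO mouse 121 (-0.44, adjusted p = 0.0495).

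**Figure D5:**
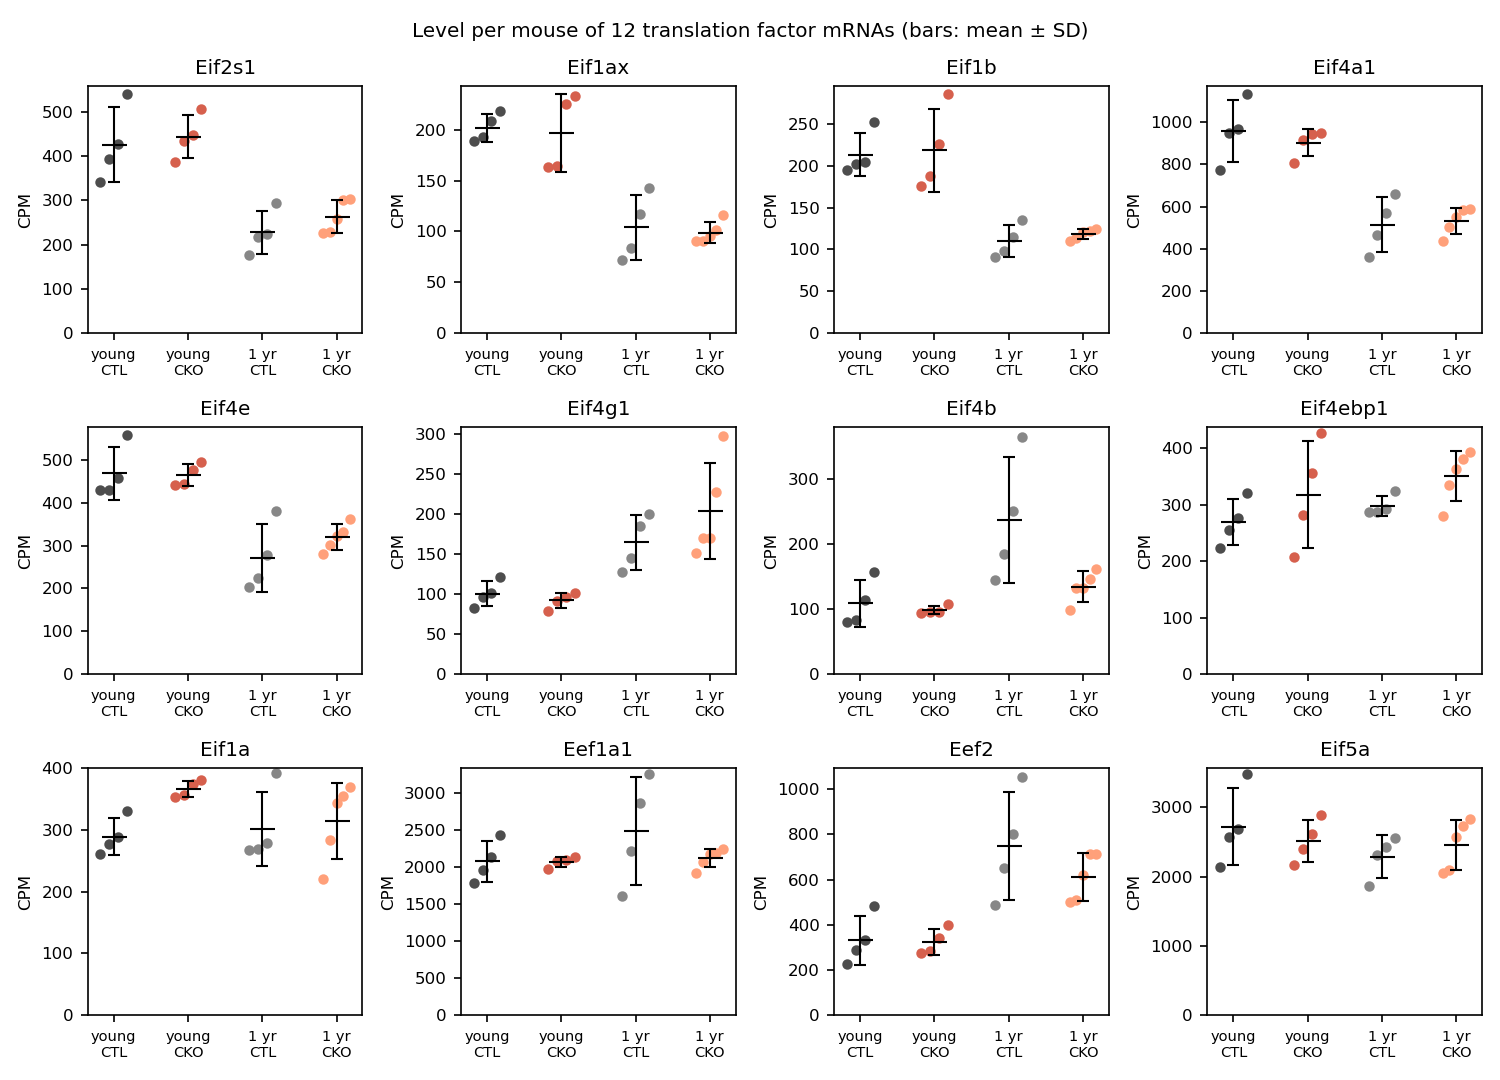
Level in CPM (vertical axes from 0) of 12 members in every mouse by group; points are mice and bars mean ± SD. Eif2s1, Eif1ax, Eif1b, Eif4a1 and Eif4e lie lower and Eif4g1 and Eef2 higher in aged mice of both genotypes, Eif1a separates the genotypes only in young mice, and Eif4ebp1, Eef1a1 and Eif5a overlap between all 4 groups.

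For the inhibitors of eIF4E, Eif4ebp1 did not differ by the test between ages, 0.15 ± 0.19 (SE, adjusted p = 0.634) in CTL and 0.14 ± 0.18 (SE, adjusted p = 0.626) in CKO mice. The ratio of Eif4e to Eif4ebp1 per kb within a mouse was 0.685 (0.624 to 0.82) in young and 0.346 (0.284 to 0.472) in aged CTL mice. In CKO mice it was 0.593 (0.446 to 0.86) and 0.381 (0.332 to 0.402) (median and range). Every aged mouse had a lower ratio than every young mouse of its genotype. Eif4ebp2 was called higher in aged CTL mice from a low base, 11.2, 0.903, 9.14 and 10.3 CPM in young and 29.8, 22.3, 25.7 and 30.7 CPM in aged mice, 1.78 ± 0.53 (SE, adjusted p = 0.0291). In CKO mice it stood at 9.29, 17.2, 17.4 and 7.36 CPM when young and 23.8, 12.3, 53.9, 24.9 and 19.6 CPM when aged, 1.07 ± 0.50 (SE, adjusted p = 0.153). The test over libraries called it higher there too (1.32, adjusted p = 0.0191). The value of 0.903 CPM in young CTL mouse 2 rested on a handful of counts. The CTL call on Eif4ebp2 was lost without young CTL mouse 3 (1.85, adjusted p = 0.0602) or 4 (1.94, adjusted p = 0.0546), with the Y-linked covariate (1.58, adjusted p = 0.066) and with the offset (1.31, adjusted p = 0.175).

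Among the elongation factors, Eef2 was called higher in both genotypes and no eEF1 subunit gene was called in the same fit. The difference between them was not tested. Eef2, the translocase gene, stood at 330.4, 481, 226 and 290.2 CPM in young and 487, 653, 803 and 1053 CPM in aged CTL mice. CKO mice held 340.4, 283, 276 and 397 CPM when young and 502, 508, 620.1, 714 and 713 CPM when aged. Each aged mouse lay above each young mouse of its genotype, with log2 fold changes of 1.17 ± 0.23 (SE, adjusted p = 0.00298) and 0.92 ± 0.22 (SE, adjusted p = 0.00769). With the length and GC offset these were 0.81 (adjusted p = 0.0408) and 0.38 (adjusted p = 0.342), so that the call held in CTL mice alone. Eef2k, whose kinase product inhibits eEF2, was not called: it stood at 49.9, 71.2, 47.8 and 36.6 CPM in young and 72.3, 98.6, 91.8 and 75.4 CPM in aged CTL mice, 0.72 ± 0.27 (SE, adjusted p = 0.075), and at 53.4, 41.7, 40.5 and 55.3 CPM in young and 56.5, 37.1, 63.0, 88.8 and 36.1 CPM in aged CKO mice, 0.24 ± 0.25 (SE, adjusted p = 0.568). It was called higher in CTL mice without mice 121 and 124 (0.77, adjusted p = 0.0395), without young CTL mouse 2 (0.91, adjusted p = 0.0407) and with the Y-linked covariate (0.86, adjusted p = 0.0483). Eef1a1, the carrier of aminoacyl-tRNA, held 2129, 2426, 1953 and 1788 CPM in young CTL, 2137, 2078, 1965 and 2089 CPM in young CKO, 2209, 1612, 2861 and 3253 CPM in aged CTL and 2069, 1924, 2181, 2171 and 2236 CPM in aged CKO mice. Its spread was largest in aged CTL mice and its groups overlapped, 0.26 ± 0.16 (SE, adjusted p = 0.302) and 0.03 ± 0.16 (SE, adjusted p = 0.911). Eef1b2 likewise was not called, 0.43 ± 0.27 (SE, adjusted p = 0.291) and 0.0035 ± 0.25 (SE, adjusted p = 0.995). The likelihood ratio test over libraries called it higher in CTL mice (0.55, adjusted p = 0.0401). Eef1d, a further eEF1 exchange factor subunit gene, had -0.34 ± 0.18 (SE, adjusted p = 0.199) in CKO mice, and -0.82 (adjusted p = 0.0222) with the offset. Eif5a held 2691, 2143, 2564 and 3486 CPM in young CTL, 2164, 2882, 2610 and 2401 CPM in young CKO, 2562, 1857, 2304 and 2433 CPM in aged CTL and 2054, 2825, 2094, 2732 and 2578 CPM in aged CKO mice, -0.25 ± 0.16 (SE, adjusted p = 0.308) and -0.03 ± 0.15 (SE, adjusted p = 0.909). With the Y-linked covariate it was called lower in CTL mice (-0.43, adjusted p = 0.0355). Eif6 had -0.18 ± 0.15 (SE, adjusted p = 0.45) and 0.27 ± 0.14 (SE, adjusted p = 0.207).

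Enzymes that methylate lysines of the elongation factors moved in opposite directions. Eef1akmt2, which acts on eEF1A, stood at 107, 116, 106 and 171 CPM in young and 65.0, 60.2, 55.9 and 54.5 CPM in aged CTL mice. CKO mice held 100.2, 119, 157 and 104 CPM when young and 48.8, 65.9, 47.5, 57.0 and 40.4 CPM when aged. The ages did not overlap, -1.08 ± 0.21 (SE, adjusted p = 0.0024) and -1.21 ± 0.19 (SE, adjusted p = 0.0004), and both calls were lost with the offset (-0.31, adjusted p = 0.41 and -0.38, adjusted p = 0.259). Eef2kmt, which acts on eEF2, rose from 91.7, 69.4, 86.3 and 76.5 to 102, 122, 125 and 125 CPM in CTL mice, 0.55 ± 0.16 (SE, adjusted p = 0.0283). In CKO mice it rose from 81.2, 76.4, 71.9 and 88.5 to 137, 127, 103, 145 and 134 CPM, 0.70 ± 0.16 (SE, adjusted p = 0.00461). With the offset it was not called, 0.50 (adjusted p = 0.084) and 0.48 (adjusted p = 0.0802), and the CTL call was lost without young CTL mouse 2, 3 or 4 or aged CTL mouse 99 or 114 (0.47, 0.57, 0.52, 0.53 and 0.51, with adjusted p = 0.0824, 0.0573, 0.0835, 0.0578 and 0.0636). The remaining calls were Eef1akmt1, a further methyltransferase gene of this group, and Eef1e1, whose product belongs to the aminoacyl-tRNA synthetase complex, both lower in aged CTL mice, -0.70 ± 0.20 (SE, adjusted p = 0.0231) and -1.07 ± 0.24 (SE, adjusted p = 0.00603). With the offset these were -0.15 (adjusted p = 0.694) and -0.85 (adjusted p = 0.0542), and neither was called.

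Members that moved together were described over the 17 mice by Pearson's r of log2 CPM, with mice sharing age, genotype and library set. Eif4a1 was most like Eif2s1 (r = 0.94), Eif3m (0.91) and Eef1e1 (0.91). Eef1a1 was most like Eef1b2 (r = 0.81), Eif3f (0.80) and Eif3c (0.79), and this set was high in aged CTL mouse 124. Eif4ebp1 had no close partner, the nearest being Eif5a at r = 0.47.

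Promoter sequences were read from RefSeq (GRCm38.p6) for 49 of the 62 members, as 250 bases before and 50 after each annotated start. The E-box CACGTG, the sequence bound by MYC with MAX and by USF, reads the same on both strands and was found in 12 of the 49 (24.5%), beside 8.09% of 27025 RefSeq genes with such a window and 11.9% of the 9773 that were tested here. The ETS motif CCGGAAG, searched on both strands, was found in 17 (34.7%), beside 9.93% and 20.6%. A gene with several starts counted once, and a site of one motif could overlap a site of the other. The 6 stretches below are printed because E-boxes lay before an annotated start both of members called higher in aged mice (Eef2 and Eif4g1 in both genotypes, Eif4h in CKO mice alone) and of members called lower in both (Eif1b, Eif4a1, Eif4e), 5′ to 3′ on the gene's strand with the E-box in capitals.
Eef2: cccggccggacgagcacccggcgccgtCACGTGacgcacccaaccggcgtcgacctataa
Eif4g1: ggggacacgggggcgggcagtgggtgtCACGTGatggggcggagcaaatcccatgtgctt
Eif4h: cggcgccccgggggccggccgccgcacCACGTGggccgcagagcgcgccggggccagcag
Eif1b: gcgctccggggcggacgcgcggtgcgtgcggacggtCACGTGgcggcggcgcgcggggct
Eif4a1: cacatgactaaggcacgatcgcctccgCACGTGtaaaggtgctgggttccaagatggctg
Eif4e: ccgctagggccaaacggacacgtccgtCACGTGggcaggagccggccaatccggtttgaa

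The E-box began 43, 54 and 96 bases before the annotated start used for Eef2, Eif4g1 and Eif4h, and 24, 189 and 64 bases before that used for Eif1b, Eif4a1 and Eif4e. For Eif4e that start lay inside the gene, whose annotated span begins at chr3:138526191, upstream of the printed stretch. On GRCm38 the printed stretches were chr10:81176561-81176620 (plus strand, Eef2), chr16:20672646-20672705 (plus strand, Eif4g1), chr5:134639473-134639532 (minus strand, Eif4h), chr9:120492546-120492605 (plus strand, Eif1b), chr11:69672580-69672639 (minus strand, Eif4a1) and chr3:138527177-138527236 (plus strand, Eif4e). Among members called in CTL mice with a window, 2 of 6 higher and 3 of 13 lower ones held an E-box, and in CKO mice 3 of 5 higher and 3 of 12 lower ones. These matches describe the letters in the window only.

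Genes that act with the factors were counted by list. In neither age was any gene called for genotype among the 13 tested termination, recycling and poly(A)-binding genes, the 9 hypusine and diphthamide enzyme genes or the 11 mitochondrial translation factor genes. The same held for the mTORC1, S6K and MNK genes (20 tested in young and 21 in aged mice) and the integrated stress response genes (15 and 17). Between ages the integrated stress response genes had 4 called higher of 17 in CTL mice and 2 in CKO mice, with none lower, beside 6.71% and 7.21% of all genes called higher. They were Cebpb (1.40 ± 0.26 SE, adjusted p = 0.00221 in CTL, 0.98 ± 0.25 SE, adjusted p = 0.0104 in CKO), a stress-responsive transcription factor gene, and Slc7a5 (0.82 ± 0.25 SE, adjusted p = 0.0295 and 1.04 ± 0.24 SE, adjusted p = 0.00534), an amino acid transporter gene, in both, with the phosphatase regulators Ppp1r15a and Ppp1r15b in CTL mice. Of the termination and recycling genes, Mcts1 (-1.53 ± 0.22 SE, adjusted p = 0.000305 and -1.40 ± 0.20 SE, adjusted p = 0.000198) and Denr (-0.94 ± 0.19 SE, adjusted p = 0.00378 and -0.94 ± 0.18 SE, adjusted p = 0.00164), whose products act together in reinitiation, and Paip2, a poly(A)-binding protein inhibitor gene, were lower in both genotypes. They were the 3 called lower of 13 in each (23.1%, background 8.08% and 9.34%), and the poly(A)-binding protein gene Pabpc1 was called higher in CTL mice (0.91 ± 0.28 SE, adjusted p = 0.03; 0.28 ± 0.26 SE, adjusted p = 0.496 in CKO mice). The mTORC1 list had 3 higher and 3 lower in CTL and 3 higher and 2 lower in CKO mice, among them the eIF4E kinase gene Mknk2 (1.70 ± 0.35 SE, adjusted p = 0.00371 and 1.38 ± 0.33 SE, adjusted p = 0.00724). With the length and GC offset, calls in CTL mice fell to 1 on the stress response list, 2 on the mTORC1 list and 0 on the termination list, and in CKO mice to 0, 2 and 0. Of the hypusine and diphthamide list 1 was lower in CTL mice (Dnajc24) and none was called in CKO mice, and with the offset none was called in either. No mitochondrial factor was called in either genotype without the offset, while with it 1 was called lower in CTL mice.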

How the data were processed

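HSCs (LSK CD48-CD150+) were sorted, 100 per library, and sequenced after SMART-Seq2 amplification. The authors aligned reads with HISAT2 to GRCm38 (mm10) and deposited raw counts per gene made with Rsubread; the HISAT2 version, gene annotation, strand setting and rule for shared reads are not given in the sources used here. From these counts the 2 libraries of each mouse were summed (library B of aged CTL mouse 99 was left out). Genes were kept by edgeR's filterByExpr (minimum count 10, minimum total 15), scaled by TMM and tested by edgeR 4.0.16 quasi-likelihood (R 4.3.3), with Benjamini-Hochberg adjustment over all genes tested at 0.05. The authors' likelihood ratio test and DESeq2 1.42.0 were alternatives. Genotype was fitted within each age, and age within genotype in 1 fit of 17 mice. Apart from that library, all deposited per-sample columns were used. Since each library holds 100 cells, CPM precision is also bound by amplification, and floors of 3 counts cover counting error only. Nothing says that libraries of a mouse were sorted separately; mice are separate animals.

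The members and lists were chosen with earlier results of these data known. Values per mouse are given for members called in any fit (up to 6 with the smallest p per direction and fit), for the 3 with the smallest p per direction in each genotype fit, and for 14 set by name; Eif1, Eif2a, Eif3m, Eif4e2, Eef1akmt1 and Eef1e1, called or printed with a test value only, fall outside that rule. Transcript length and GC share came from GENCODE vM21 (longest coding transcript per gene; 95.8% of genes tested and 100% of members matched). The offset for both was a smooth trend fitted per mouse. On simulated counts with 200 genes changed, genes changed 1.5-fold were recovered at 0% in the young, aged and CTL age fits and at 0.5% in the CKO age fit. The young and aged genotype fits recovered 41.5% and 21.5% of genes changed 2-fold, and 76.5% and 70.5% of those changed 4-fold; the age fits recovered 30.0% and 27.0%, and 69.5% and 69.5%. False shares among calls at 2-fold were 6.74, 4.44, 9.09 and 3.57%, and at 1.5-fold all calls of the young fit were false. With a length and GC trend built into simulated CTL age counts, false shares among calls were 81.2% (2-fold) and 72.7% (4-fold) without the offset, and 5.66% and 2.86% with it. The size of that trend was chosen and not taken from the data, and the offset is made to remove such a trend. These shares therefore do not tell how many calls between ages here are false. A true difference that follows length or GC share would be removed by the offset as well.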

Additional observations from a re-analysis of the deposited data

Results flagged for a closer look

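Of 124 groups of 4 or 5 mice tested, taken from 31 members, 14 held a mouse that stood apart from the rest of its group by Dixon's criterion (11.3%). Chance gives about 5% where groups are independent and normally spread. Members moved together over the same mice, and Eif2s3y, flagged in every group, follows the Y-linked reads. The share of 11.3% therefore cannot be set against that 5%. Young CTL mouse 4 accounted for 5 of them, being high in Eef1akmt2 (171 CPM, others 105.7 to 116 CPM), Eif1b (252 CPM, others 196 to 205 CPM), Eif2b1 (184 CPM, others 141 to 146 CPM) and Eif2s2 (261 CPM, others 222 to 228 CPM) and at 0 CPM in Eif2s3y (others 123 to 146 CPM). Aged CTL mouse 65 was high in Eif1a (392 CPM, others 267 to 278 CPM) and Eif4ebp1 (323 CPM, others 286 to 292 CPM) and low in Eef2kmt (101.5 CPM, others 122 to 125 CPM). Aged CTL mouse 124, whose Ythdf2 level went against its label, was low in Eif2d (31.1 CPM, others 93.8 to 99.8 CPM) and high in Eif2s2 (221 CPM, others 101 to 109 CPM). Young CTL mouse 3 was low in Eef1b2 (429 CPM, others 513 to 520.4 CPM). Eif2s3y had reads in a single mouse of 3 groups, young CKO mouse 1 (98.2 CPM), aged CTL mouse 99 (48.7 CPM) and aged CKO mouse 78 (53.2 CPM), with 0 CPM in the others.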

How the results depend on the processing

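Over all alternatives on the named members other than the length and GC offset, 3676 values kept their side of the threshold, 27 gained and 27 lost a call, and no called value changed direction. With the offset 76 of their values kept their side of the threshold, 17 lost and 0 gained a call, and 13 uncalled values turned sign, among them Eif4a2 (-0.29 to 0.04) and Eif2d (0.19 to -0.07) in CTL mice. No member was called for genotype when any mouse was left out (0 to 0 in young mice, in aged mice and for the difference). The members' median log2 fold change then ranged from -0.05 to 0.03 in young mice, from -0.05 to 0.10 in aged mice, from -0.06 to 0.05 for the difference, from -0.22 to -0.04 between ages in CTL and from -0.17 to -0.05 in CKO mice. Called members between ages ranged from 13 (without young CTL mouse 4) to 25 (without aged CTL mouse 65) in CTL, and from 14 (without young CKO mouse 3) to 24 (without aged CTL mouse 124) in CKO mice. With library totals 19 of the 21 CTL calls (without Eif1 and Eif2a) and 16 of the 18 CKO calls (without Eif2a and Eif4e) remained, with limma voom 19 (without Eef1akmt1 and Eif2a) and 18, and with the Y-linked covariate 19 (without Eif4ebp2 and Eif4g1) and 18. Counting gains, voom called 20 and 24 members, DESeq2 24 and 23, and the covariate 28 and 21, in CTL mice newly Eif1ad, Eif2s3y, Eif3g, Eif3i, Eif3j1, Eif3k, Eif4a3, Eif5a and Eef2k. The shares over all genes under these settings are not given here, so such gains cannot be told from a general rise in calls. With the length and GC offset, added after the data were seen, called members were 8 and 7. The likelihood ratio test over libraries called 4 members for genotype in aged mice (6.56%, beside 3.73% of all genes). Between ages it called 28 in CTL mice (45.2%, beside 22.1% of all genes) and 28 in CKO mice (45.2%, beside 26.5%), the latter 9 higher and 19 lower. Libraries of 1 mouse are not independent. Library totals as the sole scaling moved the median of all genes from 0.11 to 0.21 in CTL and from 0.07 to 0.17 in CKO mice, and turned the calls from 829 higher and 998 lower to 1110 and 764, and from 891 and 1154 to 1126 and 869; members were then 7 higher and 13 lower, and 6 and 11. Over all genes, 20 were called for genotype in young mice, against 77 with DESeq2, 67 and 90 with the likelihood ratio test over mice and over libraries, 10 with a Y-linked covariate, 1 in a joint fit and 0 to 18 without a mouse. In aged mice the 0 became 104, 76 and 420 with the same 3 tests, 40 with the library letter as a block, 5 in a joint fit, 40 without mice 121 and 124 and up to 16 without a mouse. For the difference, 0 became 15 without mice 121 and 124 and at most 4 with the likelihood ratio test. Between ages, 896 (without young CTL mouse 4) to 2046 genes were called in CTL and 1186 to 2656 in CKO mice without a mouse, 3113 in CKO mice over libraries and 465 and 457 with the offset; causes were not tested. With the mouse number as a replicate block the young fit called 0 members and 14 genes. Same-numbered mice showed little common deviation (correlations from -0.02 to 0.05). Such correlations cannot tell whether equal numbers mark littermates or mice processed together. Transcript lengths from RefSeq were not run. The fewest counts of a low member in a mouse were 3 for Eif5a2, 5 for Eif4ebp2, 12 for Eif2ak3 and 23 for Eif2s3x.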
